A study of Nicotiana tabacum with 9 samples.

Results

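Gibberellin genes of tobacco bound by AmMIXTA and NtZFP8 were examined in DNA affinity purification sequencing (DAP-seq) data. The 3 genes were chosen by identifier and by their gibberellin descriptions in the authors' deposited gene tables, from 1884 genes listed in either table. They are gibberellin 2-beta-dioxygenase 2-like (LOC107770071), gibberellin 2-beta-dioxygenase 8-like (LOC107792401) and gibberellin-regulated protein 9-like (LOC107810245). In DAP-seq, a transcription factor is produced outside the cell with a tag, fixed to beads by the tag and mixed with fragments of genomic DNA, and the fragments it retains are sequenced. The 9 samples were 3 replicates each of Halo-tagged AmMIXTA, Halo-tagged NtZFP8 and a Halo-tagged nuclear-targeted GFP as the negative control. AmMIXTA is a snapdragon R2R3-MYB factor that in its own species gives petal epidermal cells their conical shape. NtZFP8 is a zinc finger protein of the C2H2 type from tobacco itself. All groups used purified DNA from leaf primordia of wild-type Nicotiana tabacum, cultivar Petit Havana (SR1), without its chromatin.

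Gibberellins are plant hormones that promote growth, and in Arabidopsis they also promote the formation of leaf hairs. Gibberellin 2-beta-dioxygenases (GA 2-oxidases) inactivate the hormone by adding a hydroxyl group. In Arabidopsis, GA2ox2 acts on the active gibberellins and their direct precursors, and GA2ox8 acts on earlier precursors with a longer carbon skeleton. Gibberellin-regulated proteins, also called the GASA or snakin family, are small cysteine-rich secreted peptides whose founding genes respond to gibberellin. The tobacco genes carry these names by similarity.

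Both GA 2-oxidase genes, called the 2-like and the 8-like gene from here on, had a peak of each protein, and at each gene the centres of the peaks of AmMIXTA and NtZFP8 lay at almost the same base. AmMIXTA had the higher score of the pair at the 2-like gene and NtZFP8 at the 8-like gene. The gene for gibberellin-regulated protein 9-like had an AmMIXTA peak, and NtZFP8 had no listed peak there. The values are the authors' peak shape scores, which have no unit, with a p-value per peak against GFP. At the peaks given here, the p-value matches the upper tail of a standard normal distribution at the score, within rounding. It thus restates the score and is not separate evidence. Each protein has 1 peak list and not 1 value per replicate. The spread between replicates is therefore unknown, as is the read depth behind a peak, and no difference between the proteins was tested.

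At gibberellin 2-beta-dioxygenase 2-like, the AmMIXTA peak spanned 10493 to 10877 of scaffold NW_015890160.1, with its centre at 10742. Its score was 6.52 (the authors' p = 3.45e-11), and 91.9% of the 29197 listed AmMIXTA peaks scored lower. Among the 1662 genes of the AmMIXTA table it ranked 178th. The NtZFP8 peak spanned 10646 to 10853, with its centre at 10743, and scored 2.47 (the authors' p = 0.00683). Of the 20957 listed NtZFP8 peaks, 48.0% scored lower, so this peak stood near the middle of its list.

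At gibberellin 2-beta-dioxygenase 8-like, the AmMIXTA peak spanned 16679 to 17002 of scaffold NW_015921079.1 and scored 3.09 (the authors' p = 0.000993). It was above 66.8% of the AmMIXTA peaks. The NtZFP8 peak spanned 16750 to 17020 and scored 4.46 (the authors' p = 4.04e-06), above 80.9% of the NtZFP8 peaks. Both peaks had their centre at 16882. This gene ranked 591st in the AmMIXTA table and 257th among the 974 genes of the NtZFP8 table.

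At gibberellin-regulated protein 9-like, the AmMIXTA peak spanned 7352 to 7874 of scaffold NW_015949693.1, with its centre at 7700. Its score of 2.56 (the authors' p = 0.00522) was above 53.9% of the AmMIXTA peaks and ranked 828th among the genes. This was the lowest AmMIXTA score of the 3 genes and stood close to the median of 2.55 over the genes of its table. The gene had no line in the NtZFP8 table, and the AmMIXTA peak lay on no peak of the full NtZFP8 list. The NtZFP8 list begins at a score of 1.64, so weaker binding would not be seen in it.

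**Figure D1:**
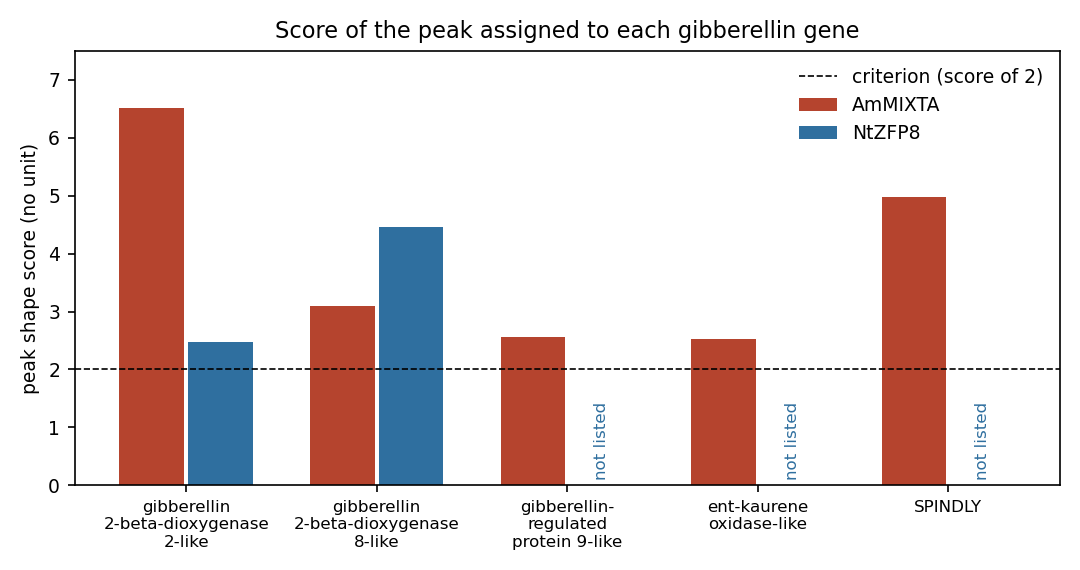
Peak shape score (vertical axis, no unit) of the peak assigned to each gibberellin gene, with AmMIXTA at the left and NtZFP8 at the right of each pair. The dashed line marks the authors' criterion of 2. The 2-like GA 2-oxidase gene has 6.52 for AmMIXTA and 2.47 for NtZFP8, the 8-like gene has 3.09 and 4.46, and the other genes are listed for AmMIXTA only.

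The authors took a score above 2 with a p-value under 0.05 as binding. At the peaks given here, each score above 2 came with a p-value under 0.05, so the p-value removed none of them. All 3 genes passed for AmMIXTA, where 71.9% of the genes in the table did. For NtZFP8, both genes that were listed passed, against 77.4% of the genes in its table. These counts are near what the tables give for any listed gene. Above a stricter score of 3, the 2-like and 8-like genes remained for AmMIXTA (37.1% of its genes did) and the 8-like gene remained for NtZFP8 (46.4%).

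The pairs of peaks at the GA 2-oxidase genes were next compared by position. At the 2-like gene the peaks overlapped by 208 bp. The NtZFP8 peak lay wholly within the AmMIXTA peak and covered 54.0% of it, and the centres were 1 bp apart. Over the full lists, NtZFP8 peaks were the narrower, with a median width of 287 bp (261 to 306) against 387 bp (336 to 442) for AmMIXTA. The NtZFP8 peak at the 2-like gene was itself narrow, with 5.44% of its list narrower. At the 8-like gene the peaks overlapped by 253 bp, which was 78.1% of the AmMIXTA peak and 93.4% of the NtZFP8 peak, and the centres were 0 bp apart. Over all 13671 overlapping pairs of the full lists, the centres lay a median of 16 bp apart (interquartile range 8 to 31). They were at most 1 bp apart in 7.08% of pairs and at the same base in 3.55%. The bases of overlap were not large, since the median over all pairs was 263 bp, and 14.4% of pairs overlapped by less than the pair at the 2-like gene and 40.3% by less than that at the 8-like gene. Overlap itself was common, since 43.7% of the AmMIXTA peaks assigned to genes and 66.4% of the NtZFP8 peaks assigned to genes lay on a listed peak of the other protein. The lists of AmMIXTA and NtZFP8 were called against the same GFP samples, and the part of these samples in the shared positions was not tested.

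**Figure D2:**
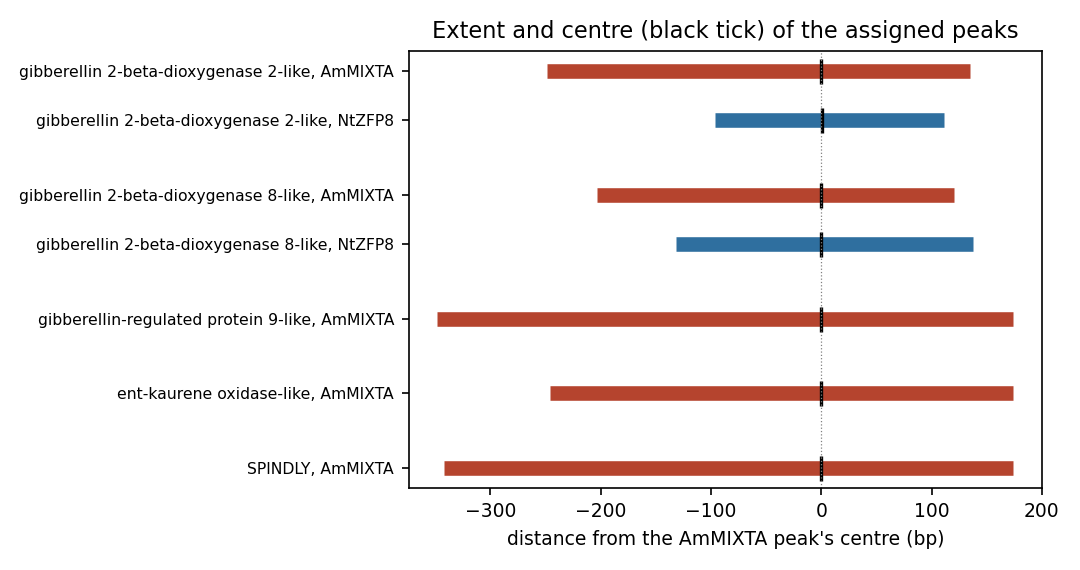
Extent of each assigned peak as a bar, with its centre as a black tick, along the distance in bp from the centre of the AmMIXTA peak of the same gene. AmMIXTA is drawn above NtZFP8. The centres are 1 bp apart at the 2-like and 0 bp apart at the 8-like GA 2-oxidase gene, and every AmMIXTA bar reaches further towards the start of its scaffold than towards the end.

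The scores at the 2 GA 2-oxidase genes were set against all 752 genes in both tables. The AmMIXTA score minus the NtZFP8 score was 4.05 at the 2-like gene, and 42 of these genes had a larger difference. At the 8-like gene the difference was -1.37, and 67 genes had a lower one. Over all 752 genes the median difference was 0.235 (interquartile range -0.56 to 1.10), and 428 genes (56.9%) had the higher score for AmMIXTA. The 2-like gene was thus among the genes most tilted towards AmMIXTA, and the 8-like gene stood on the NtZFP8 side, below the interquartile range of the genes. The scores come from separate lists, so a difference describes these lists and is not a measured difference in affinity.

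**Figure D3:**
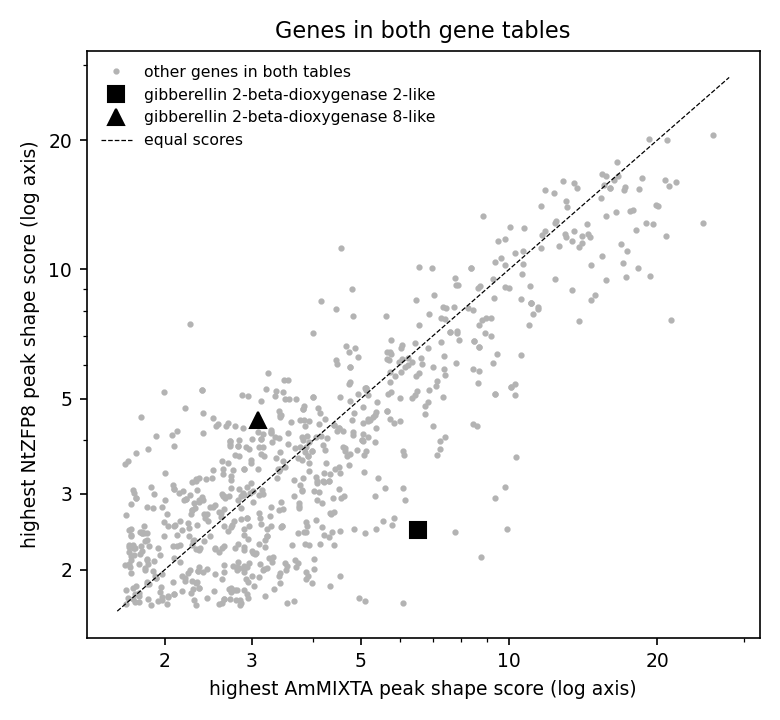
Highest NtZFP8 score against highest AmMIXTA score, both on log axes and without unit, for the 752 genes in both gene tables, with each gene as a point and a dashed line at equal scores. The 2-like GA 2-oxidase gene (square) lies far below the line, with a difference of 4.05, and the 8-like gene (triangle) lies above it, with a difference of -1.37.

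The genes whose pair of scores was closest to each gibberellin gene were found by Euclidean distance among described genes listed for the same proteins. For the 2-like gene, the closest of 520 genes were those for NADH-ubiquinone oxidoreductase chain 5 (LOC107801562, 6.14 for AmMIXTA and 2.90 for NtZFP8, distance 0.574), a chloroplastic-like beta-amylase 3 (LOC107771686, 5.84 and 2.64, distance 0.701) and a class F protein of phosphatidylinositol-glycan synthesis (LOC107796664, 5.78 and 2.54, distance 0.743). For the 8-like gene they were a mitochondrial-like ATP synthase subunit alpha (LOC107798801, 3.09 and 4.19, distance 0.27), zinc finger MYM-type protein 1-like (LOC107784168, 2.88 and 4.28, distance 0.277) and NLP7-like (LOC107766341, 3.16 and 4.14, distance 0.328). For gibberellin-regulated protein 9-like, 6 of the 656 genes listed for AmMIXTA only were within 0.01 of its score. The first of them by identifier were probable protein S-acyltransferase 22 (LOC107788799), metal transporter Nramp6-like (LOC107801964) and carotenoid 9,10(9',10')-cleavage dioxygenase 1-like (LOC107817154), each at 2.57. No other gene named for gibberellin was among these, but few could have been. By the gibberellin words used below, each GA 2-oxidase gene had only the other GA 2-oxidase gene as such a candidate. Gibberellin-regulated protein 9-like had only the SPINDLY and ent-kaurene oxidase genes described below. The likeness to the closest genes rests on 1 or 2 scores per gene.

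The peaks at the GA 2-oxidase genes stood alone. No other peak of either protein was listed on the scaffold of the 2-like gene or on that of the 8-like gene. A lone site was common. Of the peaks assigned to genes, 56.0% for AmMIXTA and 42.3% for NtZFP8 had no other peak of the same protein on the scaffold and no peak of the other protein outside their own span. The scaffold of gibberellin-regulated protein 9-like held a second AmMIXTA peak at 452 to 820 with a score of 2.27 (the authors' p = 0.0117), whose centre lay 7079 bp from that of the assigned peak. An NtZFP8 peak at 497 to 892 overlapped this second peak by 324 bp, with the centres 140 bp apart. Its score of 1.75 (the authors' p = 0.04) was under the criterion. Neither peak was assigned to a gene in the tables. None of the peaks assigned to the 3 genes was assigned to a second gene.

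Other genes of the gibberellin pathway were looked for by words in the descriptions, such as DELLA, GID1, SPINDLY, ent-kaurene and snakin. The list came to 5 genes, the 3 above and 2 more, and all 5 passed the criteria for AmMIXTA (71.9% of all genes in its table passed). Of these 5 genes, the 2 GA 2-oxidase genes were also listed for NtZFP8, and both passed (77.4% of all genes in its table passed). Over the whole AmMIXTA table, 45.2% of the genes were also listed for NtZFP8, so 2 of 5 is close to the share of any gene. The gene for a probable UDP-N-acetylglucosamine-peptide N-acetylglucosaminyltransferase SPINDLY (LOC107830612) had an AmMIXTA peak at 2190 to 2706 of scaffold NW_015858073.1, with a score of 4.97 (the authors' p = 3.42e-07). In Arabidopsis, SPINDLY is a sugar transferase that restrains gibberellin signalling. This score ranked 261st among the AmMIXTA genes and lay between those of the 2 GA 2-oxidase genes. The gene for a chloroplastic-like ent-kaurene oxidase (LOC107792085), a cytochrome P450 of early gibberellin synthesis, had a peak at 5223 to 5643 of NW_015920671.1 with a score of 2.52 (the authors' p = 0.00584). No NtZFP8 peak was listed on either scaffold, which held for 43.6% of the AmMIXTA peaks assigned to genes. No description in the tables used here matched the words for DELLA proteins or gibberellin receptors, and no gibberellin oxidase other than the 2-beta-dioxygenases matched.

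The AmMIXTA peaks on an NtZFP8 peak were narrower than the others at these 5 genes. The GA 2-oxidase peaks were 385 bp (2-like) and 324 bp (8-like) wide. The peaks without NtZFP8 were 523 bp wide at gibberellin-regulated protein 9-like, 517 bp at SPINDLY and 421 bp at the ent-kaurene oxidase gene. Over all AmMIXTA peaks assigned to genes and lying within their scaffold, the median width was 393 bp (349 to 435) for the 781 on an NtZFP8 peak and 419 bp (375 to 463) for the 992 on none. Their median scores were 3.65 for the peaks on an NtZFP8 peak and 2.13 for those on none, and these differences were not tested. The widest listed AmMIXTA peak was 524 bp, so the peaks at gibberellin-regulated protein 9-like and SPINDLY stood at or near the upper limit of the list. At these 2 genes and at the ent-kaurene oxidase gene, the peak ended exactly 174 bp past its centre, as did 21.1% of the listed AmMIXTA peaks. Peak ends thus follow fixed lengths in part, and a width is not a measure of the bound stretch alone.

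**Figure D4:**
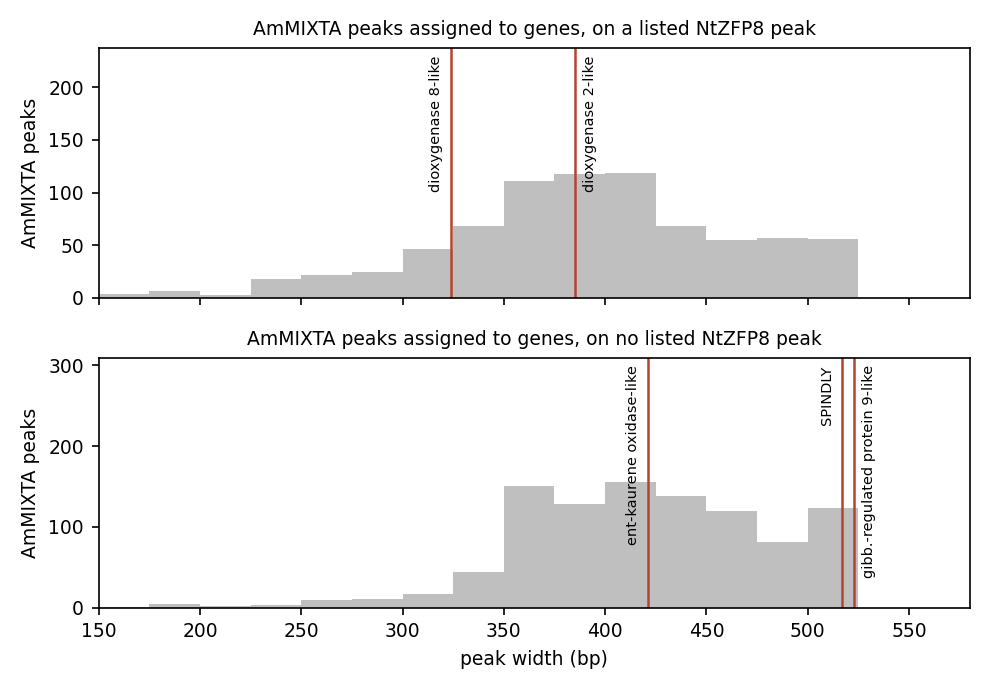
Number of gene-assigned AmMIXTA peaks (vertical axis) by peak width in bp, for 781 peaks on a listed NtZFP8 peak (top) and 992 on none (bottom). Vertical lines mark the gibberellin genes, at 385 and 324 bp in the top panel and at 523, 517 and 421 bp in the bottom panel.

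The position of the centre within the peak also differed between the lists. The AmMIXTA centres lay 57, 41.5 and 87 bp past the midpoint of the peak, towards the end of the scaffold, at the 2-like, 8-like and regulated protein 9-like genes. The NtZFP8 centres lay 6.5 and 3 bp before the midpoint at the 2-like and 8-like genes. This held over the full lists, where the centre lay past the midpoint in 81.5% of the AmMIXTA peaks (median offset 42 bp) and in 25.9% of the NtZFP8 peaks (median offset -7.5 bp). These offsets also follow fixed lengths in part. At regulated protein 9-like the AmMIXTA peak began 348 bp before its centre, the longest such distance listed, and ended 174 bp past it. Of the NtZFP8 peaks within their scaffold, 33.2% began 139 bp before the centre and 16.6% ended 138 bp past it. At the 2-like gene the start of the NtZFP8 peak lay 153 bp after that of the AmMIXTA peak, while the NtZFP8 end lay 24 bp before the AmMIXTA end. The distance between centres and the bases of overlap therefore describe different features of the same pair.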

How the data were processed

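DAP-seq was done with 3 samples per protein. Per the labels' protocols, sonicated leaf primordia DNA from separate plants (1000 ng per sample, 1 h at 25 °C) was bound to separately expressed proteins, 1 DNA replicate per protein replicate. The series' design text states that reads were mapped to the tobacco genome of Sierro and colleagues and that hits were taken against GFP at p under 0.05 and a shape score above 2. Neither the aligner nor the peak caller is given in the sources used here, nor whether replicates were pooled. The deposited score and p-value stand for 1 peak each. Coordinates are those of the deposited lists, on that genome's scaffolds. The rule that ties peaks to genes is not given either.

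Lists were read with Python 3.11.15 and pandas 2.3.3. Regions written as running past an end of a scaffold (2640 for AmMIXTA, 525 for NtZFP8) were left out of centre offsets and distances from centre to peak ends. They were also left out of the widths of gene-assigned peaks. The median widths and the share of narrower peaks in the full lists kept them. Peaks overlapped at 1 bp or more, and this function was checked on simulated intervals. Blank NtZFP8 descriptions (160 lines, the 2-like gene among them) were filled from other lines. Named genes were the 3 members, genes matching the gibberellin words, genes sharing their peaks, and the 3 closest genes per member by scores. The genes, lists and words were chosen with earlier results of these data known. The comparisons of width and centre offset were chosen after seeing the values.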

Additional observations from a re-analysis of the deposited data

How the results depend on the processing

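Of 37 values recomputed under other settings, 31 kept within 1.5 times of those given. With a score above 3, the members past the criterion fell to 1 for NtZFP8, and the genes of the gibberellin list to 3 for AmMIXTA and 1 for NtZFP8. With the word gibberellin alone, the AmMIXTA list held 3 genes. Within 20000 bp in place of 5000 bp, gibberellin-regulated protein 9-like gained 1 neighbouring peak of each protein. No count changed with a score of 2 or more, with only partners past the criteria, or when both peaks of a pair had to be covered by 50% or more. Replicates could not be left out and depth could not be weighed, because the lists hold no value per replicate. No paired analysis was possible because the lists give 1 value per protein. Tobacco carries near-identical gene copies from its parent species, and the sources used here do not say how reads matching several copies were placed.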

Other observations

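Other dioxygenase genes were looked up in the tables after the gibberellin values were seen. The description held this word for 7 genes, the 2 GA 2-oxidase genes included, and the other 5 had lower scores than both GA 2-oxidase genes in the table that listed them. A pair of carotenoid 9,10(9',10')-cleavage dioxygenase 1-like genes scored 2.57 (LOC107817154) and 2.96 (LOC107817468) for AmMIXTA and were not listed for NtZFP8. The 2-oxoglutarate-dependent dioxygenase DAO-like (LOC107771888), of a type that inactivates auxin, was not listed for AmMIXTA and scored 2.25 for NtZFP8. Hyoscyamine 6-dioxygenase-like (LOC107781145) had 1.85 for AmMIXTA, and an alkB homolog 6-like gene (LOC107812391) had 1.69 for NtZFP8, both under the criterion. The 2 GA 2-oxidase genes were listed for both proteins and the other 5 for 1 protein each, while 39.9% of the 1884 genes in either table were in both. Genes listed for AmMIXTA only scored lower in general, with a median of 2.14 over 910 genes against 2.55 over its whole table. Against this median of 2.14, both carotenoid cleavage dioxygenase genes scored higher (2.57 and 2.96) and hyoscyamine 6-dioxygenase-like scored lower (1.85). Why the other dioxygenase genes scored lower than the GA 2-oxidase genes was not tested.

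In RefSeq's gene table of another tobacco assembly (ASM71507v2), which held all 3 members, the 4 genes on each side of each member were looked up in the authors' tables. The gene next to gibberellin 2-beta-dioxygenase 2-like there, LOC107815187 (uncharacterized), had an AmMIXTA score of 4.13 and was not listed for NtZFP8. It stands on another scaffold in the authors' table. None of the other neighbours of the 3 genes was in either table. Some of these neighbours were lncRNA or snoRNA genes. The tables list 1884 genes in all, and the share of that assembly's genes among them was not counted. Whether 1 listed neighbour is few or many was therefore not tested.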
